A study of Mus musculus with 8 samples.

Results

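The genes described are 36 genes of cholesterol and fatty acid synthesis, of sterol sensing and of sterol export, measured by bulk mRNA sequencing in mouse thyroid follicular cell organoids (TFCOs), thyroid tissue and lung tissue. They were picked by symbol from a list of pathway members, and all 36 were found among the 16119 genes of the table, which lists symbols in capitals (Hmgcs1 as HMGCS1, Sqle as SQLE, Fads2 as FADS2, Abca1 as ABCA1). By role, 7 belong to the mevalonate arm, 10 to the steps from squalene to cholesterol, 6 to sterol sensing and transfer, 8 to fatty acid synthesis and 5 to the LXR and sterol export group. Cells build cholesterol from acetyl-CoA through mevalonate, farnesyl diphosphate and squalene, and they build fatty acids from the same precursor. The transcription factors SREBP-1 and SREBP-2, encoded by Srebf1 and Srebf2, are held in the endoplasmic reticulum by INSIG proteins when sterols are plentiful, and are escorted by SCAP to the Golgi for activation when sterols are scarce. The nuclear receptors LXR-alpha and LXR-beta, encoded by Nr1h3 and Nr1h2, respond to oxidised sterols and switch on sterol export.

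The series held 8 libraries, 2 for each of 4 groups, all from wild-type C57BL/6 mice without treatment. Early and late TFCOs came from the same lines, mThy14 and mThy16, so that each passage group held 1 library of each line. Each culture was set up from the cells of a single thyroid and expanded in medium with R-spondin 3, the TGF-beta inhibitor A83-01, the adenylyl cyclase activator forskolin, EGF, FGF10 and the supplement B27. The other groups were thyroid tissue 1 and 2 and lung tissue 1 and 2, whole tissues with all their cell types. Ages were not given in the sources used here, and p-values measure only the spread between these samples.

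Values are normalized counts, that is, reads on a gene divided by a size factor of the library, and differences are on the log2(normalized count + 1) scale. Between 9755081 and 16904865 reads per library fell on genes, and the lowest value of any member was 6.53 normalized counts, or 6 reads. Thyroglobulin was abundant in thyroid tissue and lowest in lung, whereas Sftpc, the surfactant gene of alveolar type 2 cells, reached 180943 normalized counts or more in both lung tissues and at most 266 elsewhere. The libraries fell into 2 sets that cut across the groups. In thyroid tissue 2 and lung, 44 genes without a read reached 50 or more in all TFCO libraries and thyroid tissue 1, and 16 genes showed the reverse. TFCOs share a set only with thyroid tissue 1, and lung tissues share theirs only with thyroid tissue 2. In comparisons of TFCOs with lung, tissue and set therefore cannot be told apart.

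Promoter windows are shown because most sterol synthesis genes with a promoter sequence shared a promoter element that the choice of members did not use. The CCAAT box, bound by NF-Y, was searched as CCAAT on both strands (ATTGG on the strand shown) from 250 bases before to 50 bases after each RefSeq start on GRCm38.p6, and a gene was counted if any of its starts had a match. It was found in 22 of the 30 members with a promoter sequence, or 73.33%, against 41.54% of the promoters of 12507 genes of the table. No promoter sequence was available for Fdps, Fdft1, Sqle, Stard4, Fads1 and Abcg1. In the mevalonate arm 5 of the 6 promoters searched held the CCAAT box, and from squalene to cholesterol 8 of 8 did. In the LXR and sterol export group 1 of 4 did. The sterol regulatory element, searched as TCACNCCAC on both strands, was matched in 1 of 30 members, Hmgcs1, and in 1.54% of all promoters. The E-box CACGTG was matched in 7 of 30 members, or 23.33%, and in 10.77% of all promoters. These are matches of letters, and factor binding was not measured. Windows of 30 bases are given 5′ to 3′ on the strand of the gene, with the matched letters in capitals, for members of the sterol pathway whose values are described next.
Hmgcs1, sterol regulatory element, chr13:119690204-119690233, plus strand: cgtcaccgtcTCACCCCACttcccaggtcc
Hmgcs1, CCAAT box, chr13:119690294-119690323, plus strand: tccccgcctctcATTGGctgaaagcggatc
Pmvk, CCAAT box, chr3:89454393-89454422, plus strand: aactcaggttggCCAATtcacagcatctag
Mvd, CCAAT box, chr8:122443465-122443494, minus strand: ggcctgtcgcctATTGGacagcacgggaaa
Lss, CCAAT box, chr10:76531531-76531560, plus strand: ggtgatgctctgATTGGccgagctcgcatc
Dhcr7, CCAAT box, chr7:143830117-143830146, plus strand: tcactgccttcaCCAATcacaggacgcagc
Insig1, CCAAT box, chr5:28071184-28071213, plus strand: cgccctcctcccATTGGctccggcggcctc
Srebf2, CCAAT box, chr15:82147122-82147151, plus strand: cttcgcgcgccgATTGGctaatgcaagcct

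To see how stable the pathway was over passages, late TFCOs were compared with early TFCOs. In mThy14, sterol synthesis genes were lower at late passage almost throughout the pathway, while in mThy16 they were nearly level. In mThy14, 19 of 36 members were at least 1 log2 unit lower at late passage, that is 2-fold or more, and 16.6% of all 14703 genes tested were. No member was at least 1 unit higher, against 8.88% of all genes. In mThy16, 0 of 36 were at least 1 unit lower and 0 at least 1 unit higher, against 6.99% and 7.68% of all genes, and the differences of all members lay between -0.69 and 0.68. Of the 17 sterol synthesis genes, 14 were at least 1 unit lower in late mThy14 TFCOs, with a median difference of -1.82 in mThy14 and 0.09 in mThy16. At least 1 unit lower in mThy14 and at all higher in mThy16 were 14 of 36 members, against 8.23% of all genes. The median over all genes was -0.04 in mThy14 and 0.01 in mThy16. Each line had 1 library per passage, so the lines' differences are given without a test.

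**Figure D1:**
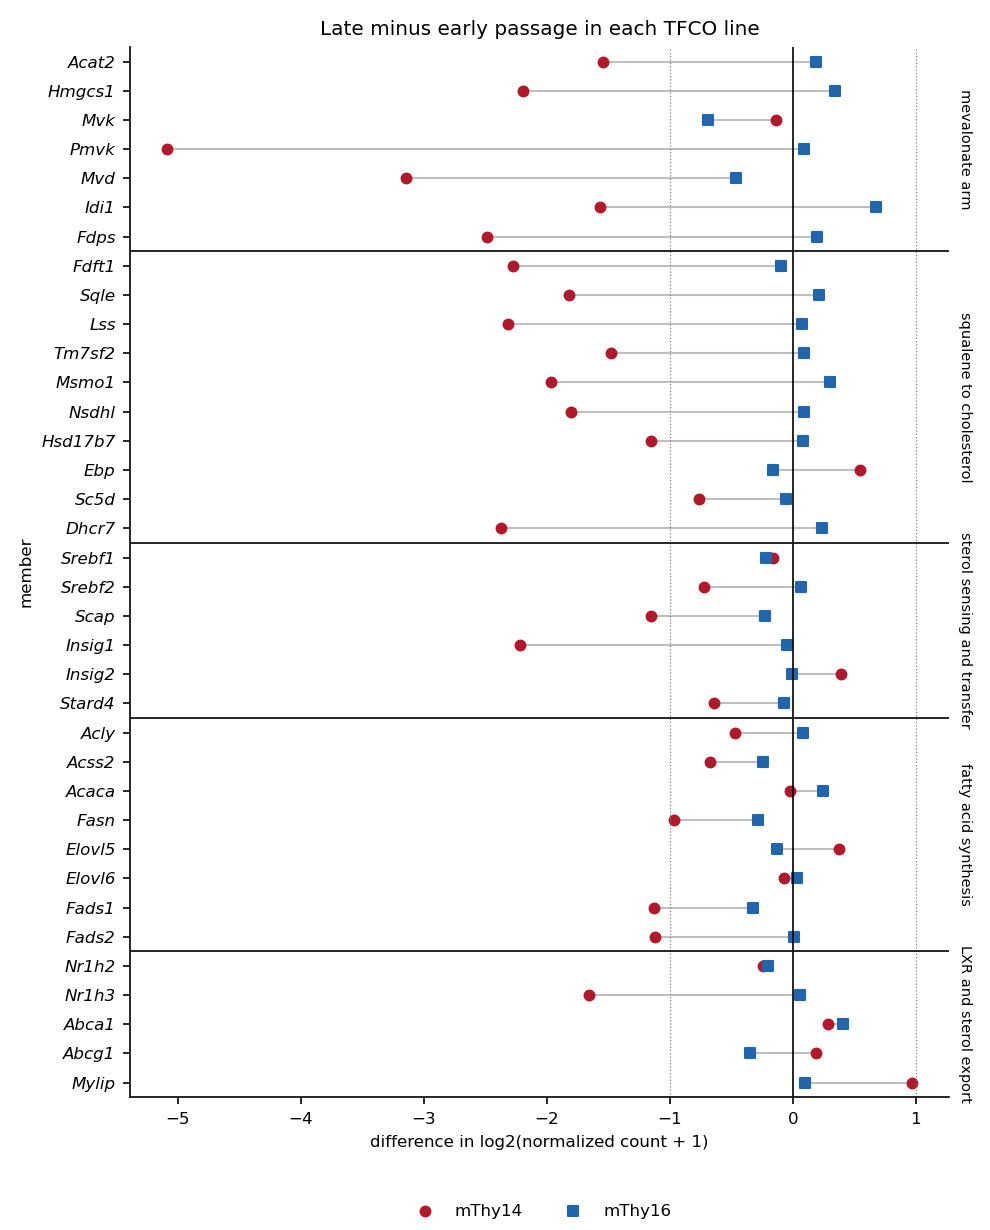
Difference between late and early passage in log2(normalized count + 1) (x axis) for each of the 36 members (y axis, grouped by role), with circles for mThy14, squares for mThy16 and dotted lines at -1 and 1. The mThy14 circles of the mevalonate arm and of the steps from squalene to cholesterol lie left of -1 for 14 of 17 genes, while all mThy16 squares lie between -0.69 and 0.68.

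The mevalonate arm had the widest median difference in mThy14, -2.19, followed by the steps from squalene on at -1.81. Hmgcs1, which makes HMG-CoA and lies on chromosome 13 from 119690379 to 119708260 in GENCODE on GRCm38, had 3749.9 (early) and 820.2 (late) normalized counts in mThy14, 2321 and 2946 in mThy16, 779 and 777 in thyroid and 2154 and 1720.2 in lung, with tissues in the order 1 and 2 here and in what follows. Late mThy14 TFCOs thus stood near thyroid tissue, and the other 3 TFCO libraries stood above both lung tissues. Pmvk, which phosphorylates mevalonate phosphate, had 1903 (early) and 55.2 (late) normalized counts in mThy14, 222 and 237 in mThy16, 297 and 229.6 in thyroid and 429 and 446 in lung. Its early mThy14 library was the highest and its late mThy14 library the lowest of all 8, 33.9-fold apart. Mvd, the decarboxylase that yields isopentenyl diphosphate, had 1275 (early) and 144 (late) normalized counts in mThy14, 351 and 254 in mThy16, 145 and 112.5 in thyroid and 208 and 167 in lung. Both lines were lower at late passage for Mvd, by 3.14 in mThy14 and by 0.46 in mThy16 (differences of -3.14 and -0.46).

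Further down the arm, Idi1, the isopentenyl diphosphate isomerase, had 528.5 (early) and 178 (late) normalized counts in mThy14, 267 and 428 in mThy16, 79.5 and 49.8 in thyroid and 244 and 222 in lung. All TFCO libraries lay above both thyroid tissues. Fdps, the farnesyl diphosphate synthase, had 1025 (early) and 182 (late) normalized counts in mThy14, 595 and 684 in mThy16, 173 and 324.5 in thyroid and 724.5 and 609 in lung. Its late mThy14 value lay between the thyroid tissues. Acat2, the acetoacetyl-CoA thiolase, was 1.55 lower at late passage in mThy14 (difference -1.55) and 0.19 higher in mThy16, and Mvk, the mevalonate kinase, differed by -0.14 and -0.69. Of the 50-base stretches of the transcripts, 39.1% were shared with other genes for Acat2 (Acat3), 26.2% for Fdps and 17.7% for Idi1, so their counts are uncertain.

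From squalene to cholesterol, 8 of 10 genes were at least 1 unit lower in late mThy14 TFCOs. Fdft1, the squalene synthase, had 2281 (early) and 470.5 (late) normalized counts in mThy14, 1099 and 1031 in mThy16, 701 and 639 in thyroid and 858 and 454 in lung. Sqle, the squalene epoxidase, had 729.5 (early) and 206 (late) normalized counts in mThy14, 563.5 and 654 in mThy16, 101 and 228 in thyroid and 734 and 535 in lung. For both genes the late mThy14 library was the lowest of the TFCOs. Tm7sf2, a sterol delta-14 reductase, had 1334 (early) and 479 (late) normalized counts in mThy14, 493 and 526.5 in mThy16, 289.6 and 107 in thyroid and 80.4 and 106.5 in lung. It overlaps Vps51, with which 9.87% of its 50-base stretches were shared, so its counts are uncertain too. So are those of Fdft1, which overlaps Ctsb and shared 9.38% of its stretches with Gm6781. Lss, which closes the sterol rings, differed by -2.32 in mThy14 and 0.07 in mThy16, and Dhcr7, the last reductase before cholesterol, by -2.37 and 0.24. Msmo1 and Nsdhl, which remove methyl groups from the ring, differed by -1.96 and -1.81 in mThy14 and by 0.31 and 0.09 in mThy16. Hsd17b7, the 3-keto sterol reductase, ranged from 35.4 normalized counts in late mThy14 TFCOs to 236 in lung tissue 2 and differed by -1.16 and 0.08. Ebp, the sterol isomerase, and Sc5d, the sterol C5 desaturase, differed by 0.55 and -0.76 in mThy14, so that these and Mvk were the 3 sterol synthesis genes less than 1 unit lower there.

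Among the sensing genes, the difference in mThy14 was widest for Insig1, a target of SREBP that retains it in the endoplasmic reticulum. Insig1 had 9796.5 (early) and 2100.4 (late) normalized counts in mThy14, 1323 and 1279 in mThy16, 605 and 619.6 in thyroid and 1101.5 and 814 in lung. The early mThy14 library alone stood far above the others. Srebf1 had 13611 (early) and 12197.5 (late) normalized counts in mThy14, 4544 and 3900.2 in mThy16, 2876 and 2059.7 in thyroid and 1598 and 1332 in lung. It therefore differed between the lines at both passages and hardly between passages. Srebf2 had 5096 (early) and 3097.5 (late) normalized counts in mThy14, 3867 and 4044 in mThy16, 1808 and 1324 in thyroid and 2195 and 2059.96 in lung. Scap had 6294 (early) and 2838 (late) normalized counts in mThy14, 2969 and 2535 in mThy16, 1654 and 693 in thyroid and 796 and 892 in lung. All TFCO libraries lay above all tissues for Srebf1, Srebf2, Scap and Insig1. Of all genes tested, 17.2% lay above both thyroid tissues in every TFCO library and 34.4% above both lung tissues. The share above all tissues is not given here. Srebf1 and Scap also split by library set, being higher in thyroid tissue 1 than in thyroid tissue 2 and lung.

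Fatty acid synthesis genes differed less in mThy14, with a median of -0.57 and 2 of 8 genes, Fads1 and Fads2, at least 1 unit lower. Fasn, the fatty acid synthase, had 14706 (early) and 7519 (late) normalized counts in mThy14, 7259 and 5957 in mThy16, 8259 and 10057 in thyroid and 3815 and 3467 in lung. Acly, which cleaves citrate to acetyl-CoA, ranged over the 8 libraries from 3106 normalized counts in lung tissue 2 to 9312 in thyroid tissue 1, and differed by -0.47 in mThy14 and 0.08 in mThy16. The LXR and sterol export genes had a median of 0.19 in mThy14. Nr1h3, at 77 to 620.1 normalized counts over the libraries, was the member of that group at least 1 unit lower, at -1.65 in mThy14 and 0.06 in mThy16. Of the other 53 genes tested around the pathway (SREBP processing, isoprenoid branches, sterol esters and uptake, citrate and NADPH supply, acyl-CoA and glycerolipid synthesis, lipid switches, fatty acid oxidation and other elongases), 6 were at least 1 unit lower in late mThy14 TFCOs, with a median of -0.02. The early mThy14 library held the highest value of all 8 for 19 of 36 members, against 14.6% of all genes tested.

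With the lines taken as replicates, 0 of 36 members passed the test between late and early TFCOs, and 0.0% of all 14703 genes did (limma on all 8 libraries, Benjamini-Hochberg adjusted p under 0.05). At an unadjusted p under 0.05, 166 genes and 2 members passed, and voom on whole reads called 0 members. The members' median difference was -0.55, with 30 of 36 negative, against -0.02 over all genes. The widest differences were those of Pmvk (-2.49, SE 0.99), Mvd (-1.80, SE 0.65), Fdft1 (-1.18, SE 0.53), Fdps (-1.14, SE 0.65) and Insig1 (-1.14, SE 0.79). Both late libraries lay below both early ones for 7 members (Mvd, Fdft1, Sc5d, Scap, Stard4, Fads1 and Nr1h2), against 12.4% of all genes. With the line as a block, again 0 members were called. Without the early mThy14 library the difference of Insig1 became 0.31. The summed normalized counts of 4 cycling markers (Mki67, Top2a, Ccnb2 and Pcna) moved with passage in the same line, from 2150 to 972 in mThy14, with all 4 lower, and from 3643 to 4021 in mThy16. Markers of other cells moved in both directions in mThy14. The 8 adipocyte markers summed to 98.4 early and 22.9 late, with 7 of 8 lower, and to 52.5 and 55.9 in mThy16. In mThy14, fibroblast markers summed to 223 early and 76.0 late, with 3 of 4 lower. In the same line, sums were higher late for endothelial (193 to 469), skeletal muscle (1893 to 2099) and macrophage markers (37.9 to 51.0). Within these lists, however, 2 of 4, 3 of 5 and 3 of 7 markers were lower late. Kdr (80.1 early and 381 late) and Acta1 (1796 and 2032) held the highest values of the endothelial and muscle lists. The 5 alveolar type 2 markers summed to 32595 and 6160 in mThy14, with 2 of 5 lower and Sftpb at 28177 and 1475, and to 5575 and 4366 in mThy16. Their part in the result was not tested.

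**Figure D2:**
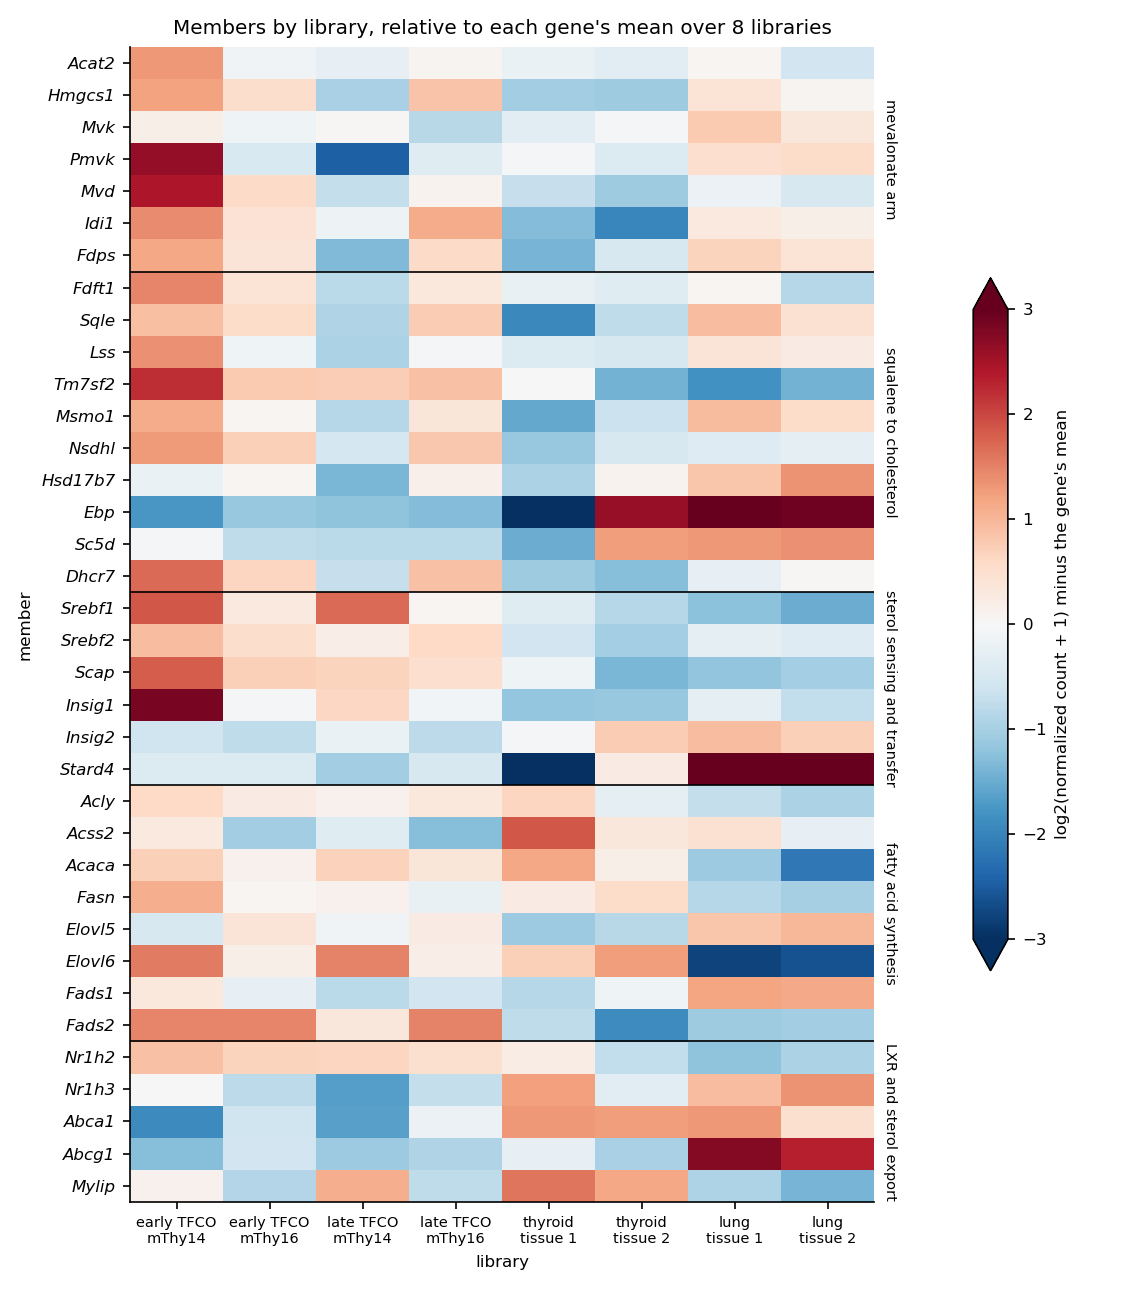
Log2(normalized count + 1) of the 36 members (rows, grouped by role) in the 8 libraries (columns), minus each gene's mean over the libraries, with red above and blue below that mean and the colour scale ending at -3 and 3. The early mThy14 column is the reddest for 19 of 36 members, and Ebp and Stard4 differ sharply between thyroid tissue 1 and thyroid tissue 2.

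The lines also differed in ways that did not change with passage. Srebf1 and Elovl6 were at least 1 unit higher in mThy14 than in mThy16 at both passages (2 of 36 members, against 6.32% of all genes), with differences of 1.58 and 1.64 for Srebf1 and of 1.39 and 1.28 for Elovl6 at early and late passage. Abca1 was at least 1 unit lower in mThy14 at both passages (1 of 36, against 7.96% of all genes), with differences of -1.32 and -1.44. Neither count was a larger share than that of all genes. For sterol synthesis as a whole the order of the lines turned over: the median of mThy14 minus mThy16 was 0.98 at early and -1.22 at late passage. The summed normalized counts of 5 thyroid follicular markers were also higher in mThy14, at 165936 and 96469 against 24407 and 19929 in mThy16. Their part in the result was not tested, and with 1 culture per line no difference between lines has a replicate check.

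TFCOs were next set against thyroid tissue, the tissue they came from, with the passages of a line averaged first. Of the 36 members, 1 was higher in TFCOs by the test, 0 were lower, and 24 had a positive and 12 a negative difference. The member that passed was Fads2, the delta-6 desaturase of polyunsaturated fatty acid synthesis, on chromosome 19 from 10062765 to 10101746. It had 3325.5 (early) and 1530.03 (late) normalized counts in mThy14, 3351 and 3369 in mThy16, 708 and 324.5 in thyroid and 575 and 581 in lung. All TFCO libraries lay above all tissues. Thyroid tissue averaged 516 ± 271 and TFCOs 2894 ± 659 (SD, n = 2 each), a log2 difference of 2.52 (SE 0.46, limma adjusted p = 0.034) or 5.73-fold. Of all genes, 0.599% were called higher, 3.05% lower and 3.65% in either direction, so that 1 of 36 members is a share near that of all genes. Against thyroid tissue 1 alone, the difference was 1.96 (limma adjusted p = 0.082), and without the early mThy14 library it was 2.24 (limma adjusted p = 0.074). Against thyroid tissue 2 alone, of the other set, 11 members and 27.8% of all genes were called, and against thyroid tissue 1 alone 0 members and 1.10% of all genes. Without the early mThy14 library 0 members were called (3.56% of all genes), without the late mThy14 library 3 (2.84%) and without the late mThy16 library 2 (3.72%).

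Of the 17 sterol synthesis genes, 14 had a positive difference from thyroid tissue, with a median of 1.14, while the median of all genes was 0.05. Against thyroid tissue 1, of the same set, 16 of 17 were positive with a median of 1.30, and against thyroid tissue 2, 13 of 17 with a median of 0.72. None of the 17 passed the test. Idi1 differed by 2.34 (SE 0.51, limma adjusted p = 0.056), Dhcr7 by 1.81 (SE 0.43, limma adjusted p = 0.074), Hmgcs1 by 1.46 (SE 0.35, limma adjusted p = 0.079) and Sqle by 1.67 (SE 0.52, limma adjusted p = 0.15). For Hmgcs1, Idi1, Dhcr7 and Tm7sf2 every TFCO library lay above both thyroid tissues. Over all 36 members, not sterol synthesis alone, the median was 0.12 in late TFCOs, 1.05 in early TFCOs and 0.58 with the passages averaged.

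Of the sensing genes, Insig1 differed from thyroid tissue by 1.99 (SE 0.58, limma adjusted p = 0.13), Scap by 1.67, Srebf1 by 1.60 and Srebf2 by 1.36, and none passed the test. Insig2, the other INSIG gene, went the other way at -0.95, with all TFCO libraries below both thyroid tissues. In the LXR group 4 of 5 differences were negative, with a median of -1.23. Abca1, which moves cholesterol out of the cell, had 132 (early) and 161 (late) normalized counts in mThy14, 332 and 440.4 in mThy16, 1236 and 1189 in thyroid and 1229 and 699.7 in lung. All TFCO libraries lay below all tissues, with a log2 difference from thyroid of -2.35 (SE 0.53, limma adjusted p = 0.065). Mylip, an LXR target that marks lipoprotein receptors for degradation, had 1071 (early) and 2098 (late) normalized counts in mThy14, 536 and 575 in mThy16, 3013 and 2186 in thyroid and 513 and 370.1 in lung. It lay below both thyroid tissues in every TFCO library, at -1.49 (limma adjusted p = 0.19). Acss2, which makes acetyl-CoA from acetate, differed by -1.71 (limma adjusted p = 0.21). Across all members, 11 lay wholly above and 4 wholly below thyroid tissue, against 17.2% and 17.3% of all genes.

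**Figure D3:**
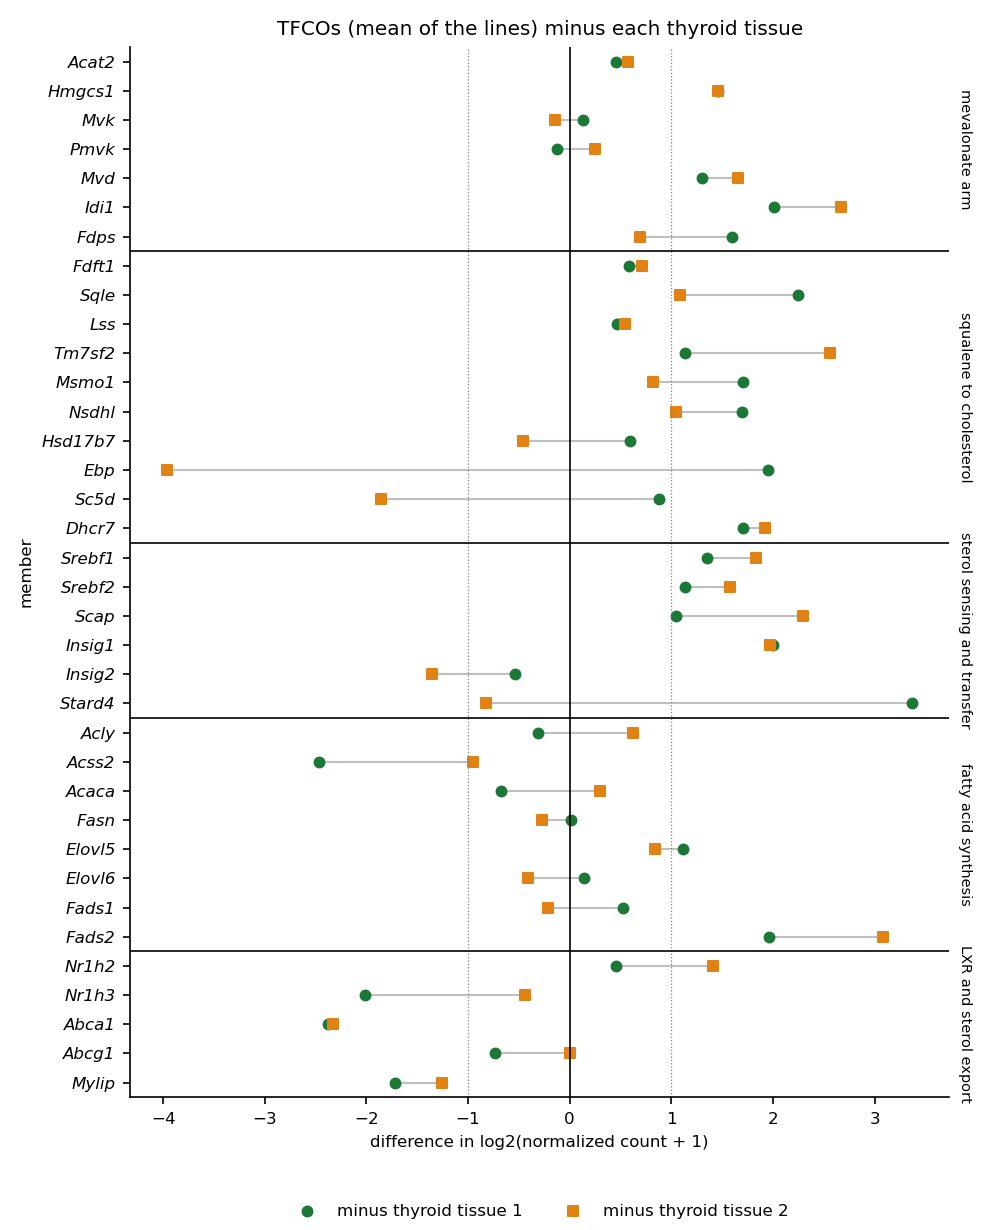
Mean of the TFCO lines minus thyroid tissue 1 (circles) and minus thyroid tissue 2 (squares) in log2(normalized count + 1) (x axis) for each of the 36 members (y axis, grouped by role), with dotted lines at -1 and 1. Most sterol synthesis members lie right of 0 against both tissues. Ebp, Sc5d and Stard4 are among the members on opposite sides of 0 and are the furthest apart.

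The tissues hold other cells. The summed normalized counts of 8 adipocyte markers ranged from 22.9 to 98.4 in TFCOs and were 4771 and 9716 in the thyroid tissues, with 6 of 8 markers lower in every TFCO library than in both thyroid tissues. The brown fat gene Ucp1 was at 4.16 to 33.7 in TFCOs and at 614 and 1246 in the thyroid tissues. The 7 macrophage markers summed to 37.9 to 60.4 in TFCOs and to 1201 and 2921 in the thyroid tissues, and 5 of 7 lay wholly lower in TFCOs. The 5 skeletal muscle markers summed to 37882 and 104036 in the thyroid tissues. In TFCOs they summed to 1893 to 2540.1, mostly Acta1 at 1796 to 2442. Their part in the differences of Abca1, Acss2, Mylip and the other members was not tested, and fewer cells of a type and less RNA per cell cannot be told apart in bulk samples.

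For Ebp, Sc5d and Stard4 the thyroid tissues themselves differed. Ebp had 21.1 (early) and 31.2 (late) normalized counts in mThy14, 32.7 and 29.1 in mThy16, 6.53 in thyroid tissue 1, 452 in thyroid tissue 2, and 678 and 563 in the lung tissues. Stard4, a carrier of cholesterol between membranes, had 99.8 (early) and 63.5 (late) normalized counts in mThy14, 100.02 and 95 in mThy16, 7.62 in thyroid tissue 1, 157 in thyroid tissue 2, and 1079 and 1094 in the lung tissues. Thyroid tissue 1 minus thyroid tissue 2 was -5.91 for Ebp, -4.19 for Stard4 and -2.74 for Sc5d, whereas the median over all members was 0.10. The thyroid tissues were at least 1 unit apart for 10 members, 5 lower and 5 higher in thyroid tissue 1. Each direction held 13.9% of the members, less than the 22.8% and 22.9% of all genes. In every TFCO library and thyroid tissue 1, 4 members lay lower than in thyroid tissue 2 and both lung tissues (20.3% of all genes). These were Ebp, Sc5d, Insig2 and Stard4. Another 6 lay higher (Tm7sf2, Srebf1, Scap, Acly, Fads2 and Nr1h2, against 23.3%). Both shares of the members were below those of all genes.

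Between thyroid and lung tissue, Acaca, Elovl6 and Mylip were higher in thyroid and Elovl5, Fads1 and Abcg1 higher in lung. These 6 of 36 members passed the test, 3 higher and 3 lower in thyroid tissue, against 6.05% of all genes (2.89% higher and 3.16% lower). Elovl6, which lengthens palmitate to stearate, had 2673 (early) and 2547 (late) normalized counts in mThy14, 1022 and 1045 in mThy16, 1491 and 2188 in thyroid and 132 and 149 in lung. All thyroid and TFCO libraries lay above lung, with a log2 difference of thyroid from lung of 3.68 (SE 0.50, limma adjusted p = 0.012). Acaca, the acetyl-CoA carboxylase that commits carbon to fatty acids, had 3127 (early) and 3075 (late) normalized counts in mThy14, 2071 and 2453 in mThy16, 4229 and 2147 in thyroid and 884.5 and 429 in lung. It rose by 2.29 in thyroid over lung (SE 0.50, limma adjusted p = 0.046), with 30.4% of its 50-base stretches shared with other loci. Mylip rose by 2.56 (SE 0.52, limma adjusted p = 0.036). Markers of fat and muscle were also higher in thyroid tissue: the 8 adipocyte markers summed to 4771 and 9716 in thyroid and 2617 and 508 in lung, with 4 of 8 wholly higher in thyroid, and the 5 skeletal muscle markers to 37882 and 104036 against 689 and 1140, with 4 of 5 wholly higher. Their part in the result was not tested.

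The members that were lower in thyroid tissue than in lung were an exporter, an elongase and a desaturase. Abcg1, which loads cholesterol onto HDL and is abundant in lung macrophages and alveolar type 2 cells, had 107 (early) and 122 (late) normalized counts in mThy14, 176 and 139 in mThy16, 222 and 133 in thyroid and 1778 and 1318 in lung. It fell by 3.15 in thyroid against lung (SE 0.45, limma adjusted p = 0.015). The 7 macrophage markers summed to 8045 and 4286 in the lung tissues, with 5 of 7 wholly lower in thyroid, and the 5 alveolar type 2 markers summed to 388448 and 263644 against 2636 and 3741 in thyroid, and their part in the result was not tested. Elovl5, an elongase of polyunsaturated fatty acids, had 1483 (early) and 1920.3 (late) normalized counts in mThy14, 2697.5 and 2461.5 in mThy16, 962 and 1163.5 in thyroid and 3687 and 4135 in lung, and fell by 1.88 (SE 0.36, limma adjusted p = 0.031). Fads1, the delta-5 desaturase, had 1351 (early) and 618 (late) normalized counts in mThy14, 914 and 729.96 in mThy16, 599.8 and 1001 in thyroid and 2462 and 2414.5 in lung, and fell by 1.65 (SE 0.37, limma adjusted p = 0.047). Without lung tissue 1 or without lung tissue 2, 0 members were called, and 0.394% of all genes were in either case. Which members were called also depended on the thyroid tissue left in. With thyroid tissue 2 alone, not all of the members called above passed. Such a fit leaves 1 thyroid library, so only differences are given. For thyroid tissue 2 alone, of the lung set, the difference from lung was 3.95 for Elovl6, 2.32 for Mylip and 1.80 for Acaca. It was -3.52 for Abcg1, -1.75 for Elovl5 and -1.28 for Fads1. For thyroid tissue 1 alone, these differences were 3.40, 2.79, 2.78, -2.78, -2.02 and -2.02 in the same order.

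Sterol synthesis genes lay below lung in both thyroid tissues for 14 of 17 genes, and 20 of all 36 members did, against 27.5% of all genes. The median over the 17 genes was -1.08, and it was -0.80 for thyroid tissue 2, the tissue in the set of the lung libraries, and -0.97 for thyroid tissue 1. None passed the test, the closest being Msmo1 at -1.85 (SE 0.43, limma adjusted p = 0.052), Sqle at -2.04 (SE 0.52, limma adjusted p = 0.069), Hmgcs1 at -1.31 (SE 0.35, limma adjusted p = 0.079) and Idi1 at -1.87 (SE 0.51, limma adjusted p = 0.079). Stard4 differed by -4.88 (SE 1.22, limma adjusted p = 0.065) and Ebp by -3.41 (SE 1.67, limma adjusted p = 0.28).

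**Figure D4:**
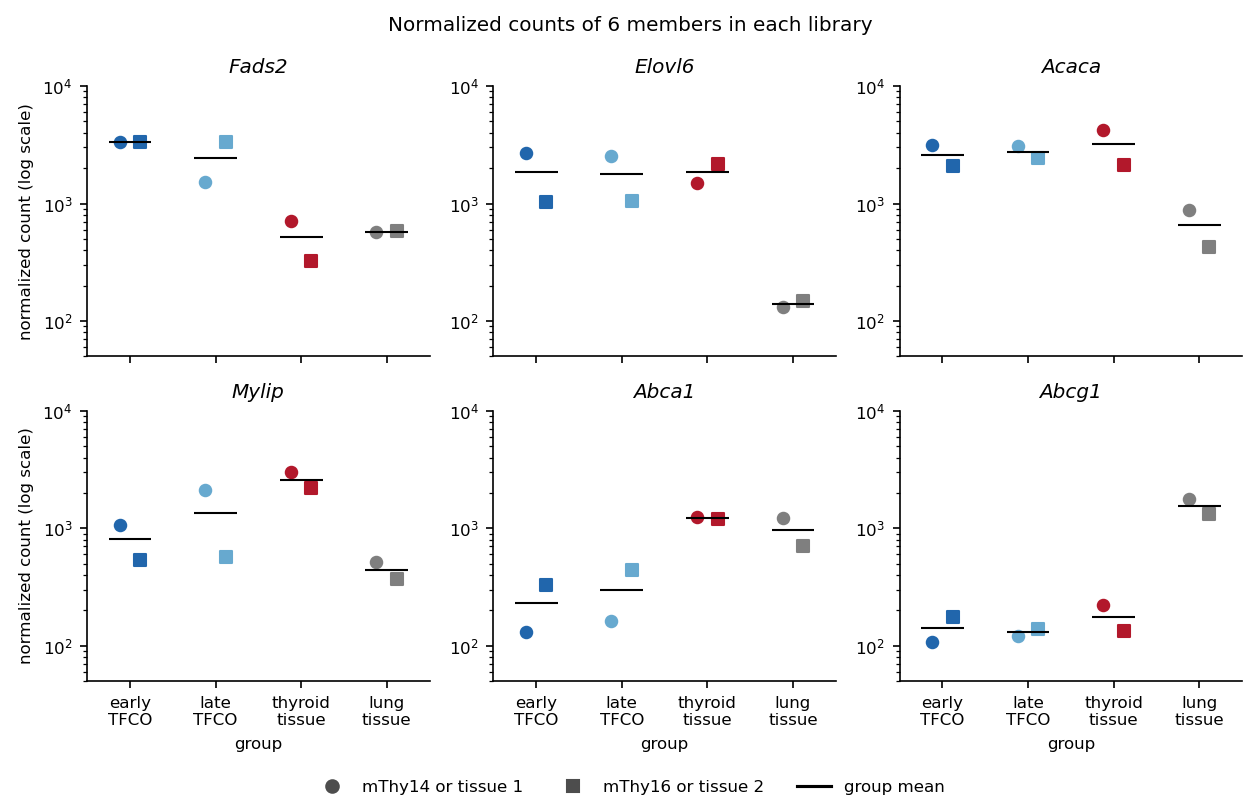
Normalized counts on a log axis (y) of Fads2, Elovl6, Acaca, Mylip, Abca1 and Abcg1 in the 4 groups (x), with circles for mThy14 or tissue 1, squares for mThy16 or tissue 2 and bars for the group mean of 2 libraries. Fads2 lies higher in every TFCO library than in any tissue and Abca1 lower, while Elovl6 and Acaca are lowest and Abcg1 is highest in the lung tissues.

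Against lung tissue, 10 of 36 members passed the test in TFCOs, 7 higher and 3 lower, against 23.4% of all genes (9.83% higher and 13.5% lower), a share near that of all genes. Elovl6 rose by 3.54 (SE 0.50, limma adjusted p = 0.0060), Tm7sf2 by 2.77, Srebf1 by 2.33, Fads2 by 2.25, Acaca by 2.10 and Scap by 2.01. Nr1h2, which encodes LXR-beta, had 3531 (early) and 2982 (late) normalized counts in mThy14, 3053 and 2657 in mThy16, 2215 and 1145 in thyroid and 823 and 991 in lung, and rose by 1.75 over lung. Abcg1 fell by 3.51 (SE 0.45, limma adjusted p = 0.0044), Abca1 by 1.97 and Fads1 by 1.5. Ebp and Stard4 differed by -4.41 (SE 1.67, limma adjusted p = 0.087) and -3.61 (SE 1.22, limma adjusted p = 0.068). TFCOs and lung never shared a library set, and Tm7sf2, Srebf1, Scap, Fads2 and Nr1h2 are among the members that split by set. In TFCOs the 7 macrophage markers all lay below lung, and their part in the result was not tested. Without lung tissue 1, 0 members and 2.17% of all genes were called, and without lung tissue 2, 0 members and 1.69%. The comparison shares the TFCO libraries with that against thyroid tissue and the lung libraries with that of thyroid and lung. Wholly above lung lay 12 members and wholly below 11, against 34.4% and 33.3% of all genes.

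Of the 53 other pathway genes tested, 4 or 7.55% passed the test between TFCOs and thyroid tissue (3.65% of all genes), 7 or 13.2% between thyroid and lung tissue (6.05%), 9 or 17.0% between TFCOs and lung tissue (23.4%) and 0 between passages (0.0%). Acsl4, which activates arachidonic acid, had 2798 (early) and 3107 (late) normalized counts in mThy14, 5098 and 5502 in mThy16, and 818 and 609 in the thyroid tissues, and rose by 2.48 over thyroid tissue (SE 0.41, limma adjusted p = 0.023). Lower in TFCOs than in thyroid tissue were Acsl1, another acyl-CoA synthetase, at -2.08 (limma adjusted p = 0.022), Acacb, the mitochondrial acetyl-CoA carboxylase, at -2.50 (limma adjusted p = 0.043), and Mlxipl, the glucose-responsive factor ChREBP, at -3.34 (limma adjusted p = 0.049). These genes are also expressed in fat and muscle, whose markers were higher in the thyroid tissues, and their part was not tested. Between thyroid and lung tissue, Acsl3 rose by 2.33, Elovl7 by 3.48, Mlxipl by 3.27 and Thrsp, a lipogenic factor induced by thyroid hormone, by 4.21, and Soat1, which esterifies cholesterol, fell by 2.77, Acsl4 fell by 1.97 and Lpcat1, which makes surfactant phospholipid, fell by 4.69 (limma adjusted p from 0.0066 to 0.040).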

How the data were processed

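Bulk mRNA sequencing of 8 libraries was analysed from a single table. The values in it are a signal deposited by the authors, normalized counts for 16119 genes, which were whole multiples of a step per library for 100% of values (tolerance 0.01). The methods describe stranded polyA libraries and DESeq2, the labels an adapted CEL-Seq protocol, and the submitters' processing notes list BWA 0.6.2-r126 with the builds hg38 and mm10, and the annotation is not given in the sources used here. Depth was 9755081 to 16904865 reads on genes.

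Groups came from sample titles. Differences were tested on log2(normalized count + 1) with limma 3.58.1 in R 4.3.3 (mean-variance trend, Benjamini-Hochberg adjustment over the 14703 genes that reached 10 in 2 libraries or more). Passages of a line were averaged before TFCOs or tissues were compared. The members and lists were chosen with earlier results of these data known. Values in every library are given for members past an adjusted p of 0.05, the 5 widest differences per comparison, and Hmgcs1, Sqle, Insig1, Srebf1, Srebf2, Fasn and Abca1. Same-numbered early and late TFCOs are the same line, and their deviations correlated at 0.48. Symbols of 15883 genes matched GENCODE and 236 did not. Fits were tested on simulated data. Alternatives changed the pseudocount, filter, scaling, trend, block, libraries in the fit and each library in turn. Tests with voom and without Ebp, Sc5d and Stard4 were added after the data were seen.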

Additional observations from a re-analysis of the deposited data

Results flagged for a closer look

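Sterol synthesis genes were mostly lower at late passage in mThy14 and nearly level in mThy16. The difference between the lines was not tested, since each had 1 library per passage. The median of late minus early (log2) was -2.19 in the mevalonate arm and -1.81 from squalene to cholesterol in mThy14, and 0.19 and 0.09 in mThy16. For the 14 members picked as at least 1 unit lower in mThy14 and above 0 in mThy16, a pair of differences that 8.23% of all genes had, the mThy14 difference was -5.08 for Pmvk, -2.49 for Fdps, -2.19 for Hmgcs1, -1.56 for Idi1 and -1.55 for Acat2 in the mevalonate arm. From squalene on it was -2.37 for Dhcr7, -2.32 for Lss, -1.96 for Msmo1, -1.82 for Sqle, -1.81 for Nsdhl, -1.48 for Tm7sf2 and -1.16 for Hsd17b7. Outside sterol synthesis it was -1.65 for Nr1h3 and -1.12 for Fads2. In mThy16 the differences of these 14 lay between 0.01 for Fads2 and 0.68 for Idi1. Mvd (-3.14 and -0.46), Fdft1 (-2.28 and -0.09), Mvk (-0.14 and -0.69) and Sc5d (-0.76 and -0.05) were lower in both lines.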

How the results depend on the processing

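With 2 libraries per group, the counts of called members depended on single libraries. For TFCOs against thyroid tissue, 0 members were called under quantile normalization (3.18% of all genes), with no mean-variance trend (3.27%), with only the groups compared in the fit (0.843%), with late libraries only (3.12%) and with voom (1.58%), 2 with early libraries only (2.84%), 5 with TFCO libraries as separate samples (8.99%), and 0 to 11 when a library was left out (1.10% to 27.8%). Their median was 1.05 with early libraries only, 0.12 with late libraries only, 0.76 with voom, and 0.11 to 1.04 when a library was left out. For TFCOs against lung tissue, 4 were called with no trend (16.9% of all genes), 18 with only the groups compared (47.5%), 19 with separate samples (45.1%), and 0 to 12 when a library was left out (1.69% to 23.8%), with a median of 0.65 with early libraries only, -0.14 with late libraries only, and -0.16 to 0.76 when a library was left out. For thyroid against lung tissue, 2 were called with no trend (6.12% of all genes), 1 with only the groups compared (1.88%), 3 with voom (4.07%), and 0 to 15 when a library was left out (0.394% to 29.3%). The median of late minus early ranged from -0.98 to -0.28 when a library was left out, and that of Insig1 from -2.58 to 0.31, the latter without the early mThy14 library. Thyroid tissue 1 minus thyroid tissue 2 had a median of 0.21 under quantile normalization and 0.10 as reported. Where these settings differ, the cause was not tested.

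With the line as a replicate block, 0 members were called between passages, with the same median of -0.55. With the tissue number as a block, 7 members and 10.0% of all genes were called between thyroid and lung tissue, instead of 6 and 6.05%, and these tissues share only a number (correlation of deviations -0.07). Quantile normalization moved the median of all genes by 0.27 for TFCOs against lung, 0.13 against thyroid tissue and 0.11 for thyroid against lung. Relative to it, the members' median was 0.02, 0.53 and -0.67, against 0.26, 0.54 and -0.61 as reported. The planned edgeR and DESeq2 fits were left out, although whole reads were recovered for 100% of values, and voom on those reads was run in their place.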
